A study of Mus musculus with 6 samples.

Results

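A set of 40 genes of the nucleolus and of ribosome biogenesis was followed in mouse Tregs (regulatory T cells, a suppressive class of CD4+ T cell) after transfer into recipients with or without MHC class II. The genes were fixed by name, and each was read from the array rows that the platform pairs with its symbol alone. Such a row was found for 39 of the 40 genes, among 19937 genes named on the array. Ppan is listed only on a row that carries several symbols and has no value here. All 39 passed the filter on low values, with the lowest group mean at 6.35 (log2). By role they comprise 4 subunits of RNA polymerase I, 8 proteins of small nucleolar ribonucleoproteins (snoRNPs), 5 abundant nucleolar proteins, 20 assembly factors of the ribosomal subunits (10 of the small and 10 of the large one), and the enzymes Odc1 and Cad, which supply polyamines and pyrimidines to growing cells.

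Total T cells from the periphery of wild-type mice were given to CD3ε-deficient mice, whose own T cells are missing. The hosts of the MHC II-competent group expressed MHC class II, the molecules that show peptides to the T cell receptor of CD4+ cells, and those of the MHC II-deficient group lacked both CD3ε and MHC class II. The labels give C57BL/6 as the strain and 6 to 8 weeks as the age, without saying whether donors or hosts are meant. CD4+ TCRβ+ CD25+ cells were enriched on beads and sorted on day 5, the labelled origin being lymph nodes and spleen, and 3 arrays were made per group. The labels call the replicates biological but do not say whether one is a single recipient or a pool. Foxp3 did not define the sort, so CD25+ cells other than Tregs could be in it. The p-values therefore reflect the variation among these 6 preparations and no more.

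Ribosomes are built in the nucleolus, where RNA polymerase I transcribes the long ribosomal RNA precursor. The snoRNPs guide methylation, pseudouridylation and cleavage of that precursor, and a large set of assembly factors folds it together with ribosomal proteins into the small and the large subunit. T cells enlarge their nucleoli and raise this programme when antigen receptor and costimulatory signals drive them to grow, and the transcription factor Myc is among its known activators. The comparison asks which of these transcripts differ in CD25+ cells kept for 5 days without contact of their receptor with MHC class II.

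Foxp3 lay between 9.68 and 9.88 (log2) on the 6 arrays, Cd4 between 10.22 and 10.67 and Il2ra, which encodes CD25, between 11.11 and 11.59. All 9 T cell and Treg markers tested lay lower on the deficient arrays (median -0.14; 5 of 9 below 0 under quantile normalization), and 0 passed limma's test, with 3 at an unadjusted p under 0.05. The groups did not overlap for 5 of them. Their mean was 11.20, 11.23 and 11.06 on the competent and 11.04, 10.98 and 10.99 on the deficient arrays, and the part of this shift in the results was not tested. Among 14953 genes tested, 507 (3.39%) passed limma's test at an adjusted p under 0.05, 306 lower (2.05%) and 201 higher (1.34%) after MHC II-deficient transfer. With 1 array left out the count was 249 (competent 1), 174 (competent 2), 735 (competent 3), 159 (deficient 1), 213 (deficient 2) and 319 (deficient 3). The split was 231 lower and 246 higher under quantile normalization and 294 lower and 128 higher with each array centred on its median. Of the myeloid and dendritic cell markers, 17 of 18 were tested, 14 lay higher on the deficient arrays and 3 lower, with 1 past the threshold (higher). Without deficient 3 there were 4 such markers, and without any other single array 0. Without competent 3 there was 1 lower marker past the threshold, and array weights gave 4 higher and 1 lower. With the replicate number as a block there were 9 higher. The median difference of the 17 markers was 0.72. Of them, 13 were at an unadjusted p under 0.05 in either direction, against 19.0% of all genes tested. The mean of the myeloid markers ran from 6.05 to 6.81 on the competent and from 6.75 to 7.43 on the deficient arrays. The B cell markers (mean 6.03 to 6.28 against 6.35 to 6.54) had 1 higher call among 5 tested, with 3 of 5 at an unadjusted p under 0.05. The CD8 T and NK cell markers (8.42 to 8.65 against 8.50 to 8.71) had 0 calls among 6 tested, with 4 of 6 at an unadjusted p under 0.05, and the erythroid and platelet markers (6.04 to 6.46 against 6.41 to 6.59) had 0 among 3, with 1 of 3 at an unadjusted p under 0.05. An array read from a sorted population cannot tell fewer cells of a type from less RNA per cell.

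A known binding sequence of Myc and its partner Max is the E-box CACGTG, and the promoter windows of the genes were searched for it. The windows, from RefSeq on GRCm38.p6, run from 250 bases before to 50 bases after each annotated gene start, and CACGTG reads the same on both strands. Of the 34 genes of the set with a window, 5 (14.7%) held it, as did 22 of 117 other genes of the pathway (18.8%), 5 of 41 ribosomal protein genes (12.2%) and 9.5% of 15613 genes on the array. Below, each motif is in capitals with up to 12 bases on either side, 5′ to 3′ on the gene's strand, to show where the letters sit.
Nop2: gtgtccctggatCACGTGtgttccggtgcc
Pes1: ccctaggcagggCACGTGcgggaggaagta
Tsr1: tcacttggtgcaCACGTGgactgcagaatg
Utp20: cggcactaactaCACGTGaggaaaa
Wdr43: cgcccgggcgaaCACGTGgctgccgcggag
The Nop2 stretch is chr6:125131811-125131840 on the plus strand, and its motif starts 60 bases before the gene start. The other 4 motifs start 2 to 37 bases after it: Pes1 (chr11:3963965-3963994, plus strand), Tsr1 (chr11:74898092-74898121, plus), Utp20 (chr10:88826765-88826789, minus) and Wdr43 (chr17:71616220-71616249, plus). The median log2 difference, MHC II-deficient minus MHC II-competent, was -0.21 for these 5 genes and -0.13 for the 28 with a window, a value and no such motif. A match in this window is a description of the sequence and does not show binding.

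Of the 39 genes, 0 passed the threshold of limma's test in either direction (against 3.39% of all genes tested, 2.05% lower and 1.34% higher). Most lay slightly lower in Tregs from MHC II-deficient recipients, with 34 of 39 differences below 0 (87.2%, against 46.1% of all genes tested) and a median log2 difference of -0.13, against 0.02 over all genes tested. All 39 genes also passed a filter at the median of gene means. There 5482 of 9969 genes tested lay below 0, with a median of -0.03, and 34 of the 39 did. The count below 0 was 28 of 39 under quantile normalization (7434 of 14953 genes tested) and 27 of 39 without competent 1 (6566 of 14953). Among the rows used, the largest difference was that of Rrs1 at 1.35-fold (log2 -0.43), and 11 of the 39 were under 0.1 in size. A row of Odc1 that was not used gave -0.44. At an unadjusted p under 0.05 there were 7 genes (17.9%, against 19.0% of all genes tested), all of them lower. The groups did not overlap for 8 genes (20.5%, against 24.4%), 7 lower and 1 higher. The lean in direction thus came with single differences of small size.

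**Figure D1:**
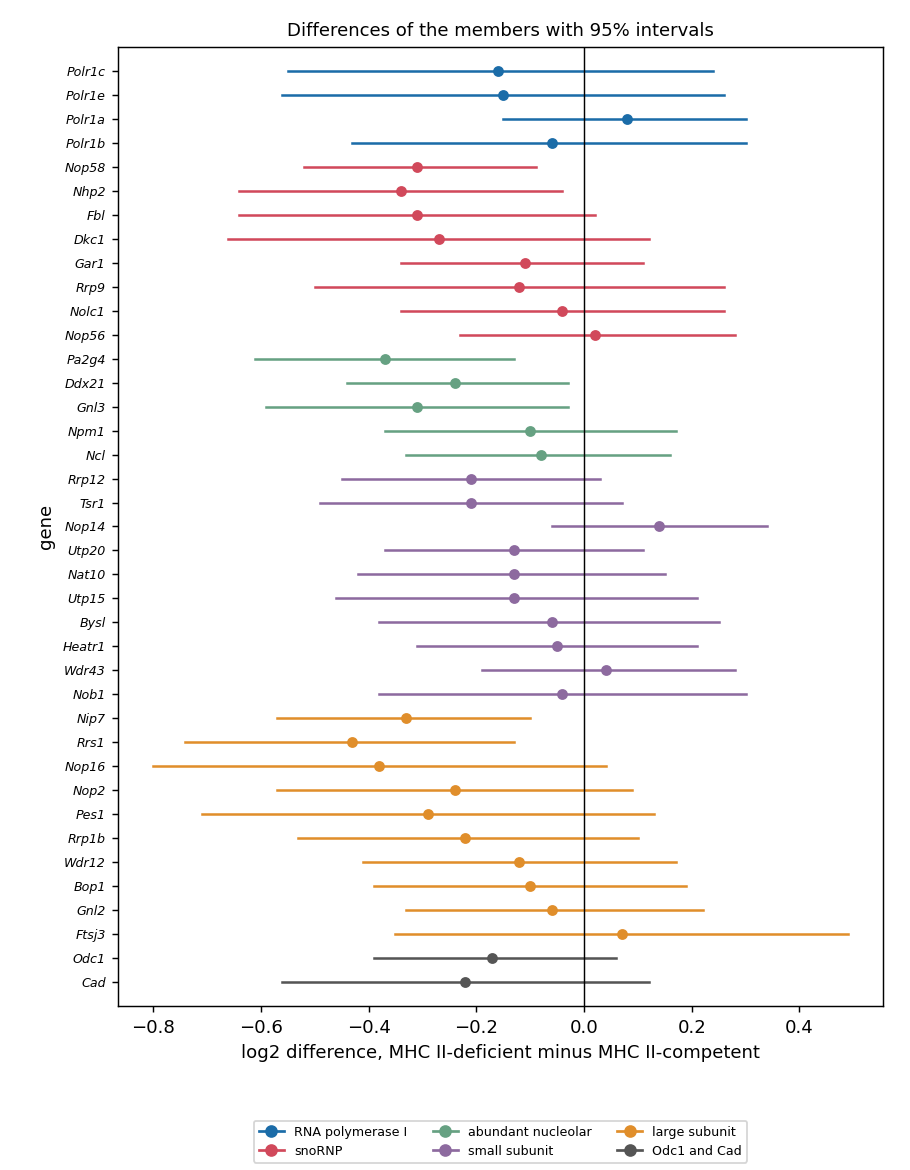
Log2 difference of each of the 39 genes (x axis, MHC II-deficient minus MHC II-competent; y axis, gene, coloured by role), with the point at limma's estimate and the bar its unadjusted 95% interval from 3 arrays per group. Of the points, 34 lie below 0, and 7 bars, all on the lower side, do not reach 0.

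The unadjusted 95% intervals of all 39 differences, in the fit without a covariate, lay between -0.80 and 0.49 on the log2 scale, short of a 2-fold change in either direction. A further fit took in the myeloid score, the mean of the tested myeloid markers on each array. With this score in the fit the intervals of 3 genes reached past 2-fold on the lower side. They were those of Nop16 (-1.31 to -0.38), Dkc1 (-1.04 to 0.11) and Polr1e (-1.02 to 0.07). Without the covariate, for 31 of the 39 the whole interval lay within a 1.5-fold change (0.58 on the log2 scale), and the other 8 reached that size on the lower side alone.

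The spread between arrays of 1 group was as large as the group difference for most of the genes. Competent 3 was the lowest competent array for 28 of the 39 genes, and deficient 1 the lowest deficient array for 27. The mean of the 39 genes was 8.96, 8.94 and 8.71 on the competent and 8.59, 8.76 and 8.79 on the deficient arrays, so competent 3 lay below the means of deficient 2 and 3. The range over the 3 competent arrays exceeded the group difference for 30 genes. The median SD of the genes was 0.18 in the competent and 0.14 in the deficient group, against 0.14 and 0.11 over all genes tested. Without competent 3 the median difference was -0.26 with 37 of 39 below 0 and 18 at an unadjusted p under 0.05. Without deficient 1 it was -0.10 with 31 below 0 and 3 at that p. The count at that p over all 14953 genes tested moved as well, to 3610 without competent 3 and 2003 without deficient 1 (2841 with all arrays).

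**Figure D2:**
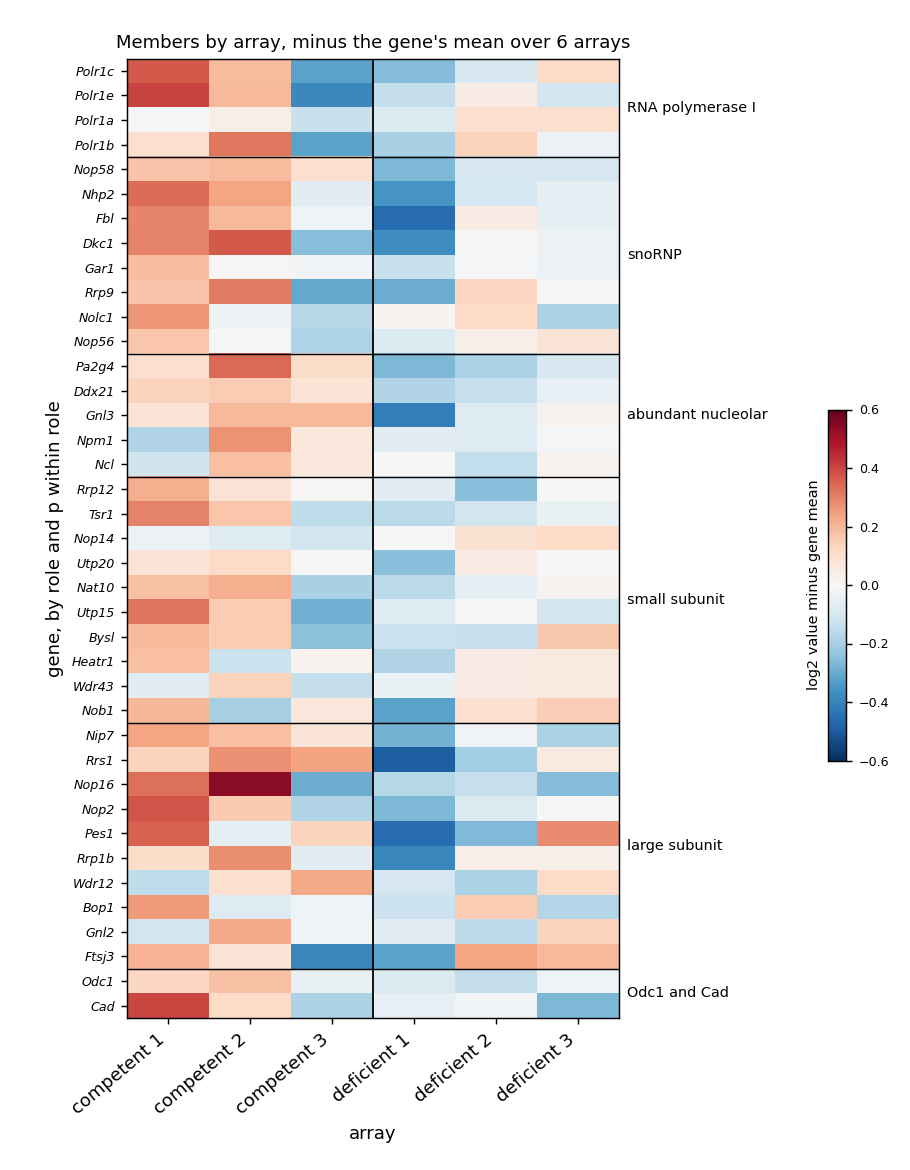
Log2 value of each gene on each array minus the gene's mean over the 6 arrays (colour; red above, blue below), with genes in rows by role and arrays in columns. Competent 1 and 2 are mostly red, whereas competent 3, the lowest competent array for 28 of 39 genes, resembles the deficient arrays in the RNA polymerase I and snoRNP rows.

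None of the 4 RNA polymerase I subunits of the set differed beyond its spread. Polr1a, the largest catalytic subunit, stood at 7.35, 7.40 and 7.23 on the competent and 7.28, 7.46 and 7.46 on the deficient arrays (log2 0.08, SE 0.10, adjusted p = 0.738). Polr1b, the other catalytic subunit, stood at 6.82, 7.04 and 6.40 against 6.53, 6.86 and 6.69 (-0.06, SE 0.16, adjusted p = 0.878), with the sign turned without competent 2 (0.08) or deficient 1 (0.02). The groups overlapped for both. Polr1c, a subunit shared with RNA polymerase III, read 10.06, 9.88 and 9.37 against 9.43, 9.60 and 9.81 (-0.16, SE 0.18, adjusted p = 0.693). Polr1e, the subunit also called PAF53, read 8.50, 8.29 and 7.71 against 7.95, 8.14 and 7.98 (-0.15, SE 0.18, adjusted p = 0.718). In each of the 4 subunits, Polr1a among them, the lowest of all 6 arrays was competent 3. The median of the 4 was -0.11, and it was -0.30 without competent 3 and 0.00 without competent 1.

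The snoRNP genes leaned lower, with 7 of 8 differences below 0 and a median of -0.20. Nop58 (row 10346634), a core protein of the box C/D particles that guide methylation, stood at 10.23, 10.25 and 10.16 on the competent and 9.79, 9.97 and 9.96 on the deficient arrays. Its groups did not overlap (-0.31, SE 0.10, adjusted p = 0.127). Fbl, the methyltransferase fibrillarin of the same particles, stood at 11.46, 11.36 and 11.14 against 10.71, 11.21 and 11.11 (-0.31, SE 0.15, adjusted p = 0.298). Deficient 1 was the array that set Fbl apart, since deficient 2 lay above competent 3. A further Fbl row of lower signal gave -0.24. Nop56, the partner of Nop58 in the core, differed by 0.02 (SE 0.11, adjusted p = 0.943), which was chosen for mention after its value was seen.

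The H/ACA particles, which guide pseudouridylation, gave a like picture. Nhp2, an RNA-binding protein of the particle, stood at 9.61, 9.51 and 9.21 against 8.92, 9.17 and 9.22 (-0.34, SE 0.13, adjusted p = 0.202), where deficient 3 overlapped competent 3. Dkc1, the pseudouridine synthase dyskerin, stood at 9.09, 9.16 and 8.54 against 8.42, 8.79 and 8.76 (-0.27, SE 0.17, adjusted p = 0.440). Competent 3 again lay among the deficient arrays for Dkc1, and its difference was -0.47 without that array (adjusted p = 0.083). Gar1, of the same particles, stood at -0.11. Rrp9 and Nolc1, the remaining snoRNP genes of the set and not counted here with the H/ACA particles, stood at -0.12 and -0.04.

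The abundant nucleolar proteins held the smallest adjusted p of the set. Pa2g4 (row 10373454), which encodes the nucleolar growth regulator EBP1, stood at 10.67, 10.91 and 10.68 on the competent and 10.30, 10.38 and 10.47 on the deficient arrays. Each deficient value lay below each competent one, and the difference was -0.37 (log2, SE 0.11, adjusted p = 0.0993). It passed with a trended robust prior (adjusted p = 0.047) and under no other of the 15 settings (0.047 to 0.31). Ddx21, an RNA helicase of rRNA transcription and processing, stood at 10.09, 10.11 and 10.04 against 9.78, 9.82 and 9.91 (-0.24, SE 0.09, adjusted p = 0.194). Gnl3, the GTPase nucleostemin, stood at 9.24, 9.35 and 9.35 against 8.74, 9.08 and 9.18 (-0.31, SE 0.13, adjusted p = 0.213). Neither gene overlapped between the groups.

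The classical nucleolar markers overlapped. Npm1, the histone and ribosome chaperone nucleophosmin, read 10.90, 11.35 and 11.14 against 11.01, 11.00 and 11.07 (-0.10, SE 0.12, adjusted p = 0.711), with the sign turned without competent 2 (0.01). Ncl, the RNA-binding protein nucleolin, read 11.14, 11.44 and 11.32 against 11.26, 11.11 and 11.28 (-0.08, SE 0.11, adjusted p = 0.737), with the sign turned under quantile normalization (0.01). For both genes competent 2 was the highest array and competent 1 lay within or below the deficient values. The 95% interval ran from -0.37 to 0.17 for Npm1 and from -0.33 to 0.16 for Ncl.

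Small subunit assembly factors had 8 of 10 differences below 0 and a median of -0.10 (-0.02 under quantile normalization, and 0.01 without competent 1). Rrp12, a factor in nuclear export of the precursors, stood at 6.67, 6.54 and 6.46 against 6.39, 6.20 and 6.45 (-0.21, SE 0.11, adjusted p = 0.324). Tsr1, a late maturation factor, stood at 9.30, 9.17 and 8.85 against 8.84, 8.89 and 8.96 (-0.21, SE 0.12, adjusted p = 0.408). The groups of Rrp12 nearly touched, and those of Tsr1 overlapped. Utp20, a scaffold of the early processome, stood at 7.26, 7.30 and 7.18 against 6.93, 7.23 and 7.18 (-0.13, SE 0.11, adjusted p = 0.565), so that only deficient 1 stood off. Nop14, a processome component, was the 1 gene of the set whose deficient arrays all lay above the competent ones, at 9.25, 9.34 and 9.37 against 9.22, 9.17 and 9.14 (0.14, SE 0.09, adjusted p = 0.449). The other 6 (Nat10, Utp15, Bysl, Heatr1, Wdr43 and Nob1) lay between -0.13 and 0.04.

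Large subunit assembly factors held the 2 largest differences of the set among the rows used, with 9 of 10 below 0 and a median of -0.23. Rrs1 (row 10344723), which works in assembly of the large subunit around its small rRNA, stood at 8.72, 8.86 and 8.83 against 8.09, 8.38 and 8.64. Its deficient values were all lower but spread widely, and the difference was -0.43 (SE 0.14, adjusted p = 0.128). Nip7 (row 10575144), a factor needed for rRNA processing, stood at 8.72, 8.66 and 8.56 against 8.20, 8.46 and 8.29, also without overlap (-0.33, SE 0.10, adjusted p = 0.126). Nop16 stood at 9.18, 9.39 and 8.55 against 8.68, 8.71 and 8.59 (-0.38, SE 0.19, adjusted p = 0.317). Here competent 3 was the lowest array of all, and without it Nop16 passed (-0.62, adjusted p = 0.020). With competent 2 left out instead it stood at -0.20, and with the myeloid score in the fit at -0.85 (SE 0.21, adjusted p = 0.117). Nop2, an rRNA cytosine methyltransferase, stood at 8.51, 8.29 and 7.95 against 7.86, 8.05 and 8.13 (-0.24, SE 0.15, adjusted p = 0.426), with overlap. The other 6 (Pes1, Rrp1b, Wdr12, Bop1, Gnl2 and Ftsj3) lay between -0.29 and 0.07. Pes1, Bop1 and Wdr12, which form a complex of their own in large subunit assembly, stood at -0.29, -0.10 and -0.12.

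Odc1 and Cad, metabolic genes that are known Myc targets, overlapped between the groups. Odc1, which starts polyamine synthesis, stood at 10.94, 10.99 and 10.77 against 10.73, 10.67 and 10.79 (-0.17, SE 0.10, adjusted p = 0.407). A further Odc1 row gave -0.44, a gap that leaves the size of its difference uncertain, since either row may also bind near-identical copies. Cad, the enzyme that begins pyrimidine synthesis, stood at 7.87, 7.59 and 7.28 against 7.42, 7.45 and 7.20 (-0.22, SE 0.15, adjusted p = 0.473). It stood at -0.08 without competent 1, its highest array, and at -0.37 without competent 3.

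The rest of the pathway was read from 138 further genes in 5 lists, of which 3 fell (2.17%, against 2.05% of all genes tested that were called lower) and 0 rose. That share is close to the background. Their differences lay below 0 for 112 of 138 (81.2%, against 46.1% of all genes tested), with a median of -0.14. At an unadjusted p under 0.05 there were 27 of 138, against 19.0% of all genes tested, which is also close to the background. By list, 12 of 16 genes of the RNA polymerase I machinery lay below 0 (median -0.12), 11 of 14 snoRNP genes (-0.18), 41 of 45 of small subunit assembly (-0.14), 38 of 50 of large subunit assembly (-0.12) and 10 of 13 of the RNA exosome (-0.15), the nuclease complex that trims rRNA precursors. The first pair of lists had 0 calls, with 2 genes each at an unadjusted p under 0.05. The small subunit, large subunit and exosome lists had 1 each. In the polymerase list, the groups did not overlap for 5 of 16 genes, all lower, against 24.4% of all genes tested in either direction. None of the 5 passed, and they were chosen for mention after their values were seen. They were Ubtf and 4 subunits that RNA polymerase I shares with other polymerases. Ubtf stood at -0.21 (SE 0.10, adjusted p = 0.28). Polr2f stood at -0.38 (SE 0.11, adjusted p = 0.0997), Polr2h at -0.33 (SE 0.10, adjusted p = 0.126), Polr1d at -0.21 (SE 0.09, adjusted p = 0.266) and Polr2l at -0.19 (SE 0.10, adjusted p = 0.339). The shared subunits Polr2k (-0.12, SE 0.11) and Polr2e (0.02, SE 0.14) overlapped between the groups. Of the 4 genes of that list above 0, Taf1a (0.62, SE 0.33) and Ttf1 (0.30, SE 0.15) lay furthest up, also with overlap.

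Utp18 (row 10389842), a small subunit processome protein, stood at 8.61, 8.87 and 8.63 on the competent and 8.23, 8.19 and 8.26 on the deficient arrays. On the log2 scale it fell by 0.48, with an SE of 0.10 (adjusted p = 0.0404). Sdad1 (row 10531383), a large subunit factor, stood at 7.34, 7.38 and 7.50 against 6.75, 7.04 and 6.95, and fell by 0.50 (SE 0.11, adjusted p = 0.0410). Mphosph6 (row 10582074), an exosome-associated protein, stood at 9.64, 9.56 and 9.53 against 9.13, 9.17 and 9.20, and fell by 0.41 (SE 0.09, adjusted p = 0.0434). None of the 3 overlapped between the groups. The adjusted p of each lay close to the threshold, and it exceeded 0.05 in 9 of 15 settings for Utp18 (0.030 to 0.16), in 7 for Sdad1 (0.031 to 0.33) and in 9 for Mphosph6 (0.025 to 0.25). In leave-one-out fits the calls ended without any array but competent 3 for Utp18 and Mphosph6, and without each array in turn for Sdad1.

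The ribosomal proteins are the parts that the assembly factors put together. Of 76 listed, 52 had a row that carries their symbol alone, and these 52 were tested. Among them 28 lay below 0 (53.8%), the median was -0.01, and 0 passed limma's test, with 1 at an unadjusted p under 0.05. The count below 0 was 41 with median centring, 36 with the rows of a gene averaged and 20 under quantile normalization. Of the 52, 31 had a mean above 12 (log2), where the highest value on any array was 13.33, and whether differences are compressed near the top of that range was not tested. Their mean lay between 11.66 and 11.73 on all 6 arrays, and the median ran from -0.07 (median centring) to 0.02 (quantile normalization). The list median of the 39 nucleolar genes stayed below 0 under every one of the 15 settings (-0.26 to -0.09). The difference between these lists was not tested. Each array was labelled from the same amount of total RNA (100 ng) and normalized between arrays, with array medians of 6.11 to 6.25 in the deposited values, so a change in ribosome content or total RNA per cell would not appear in these values.

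**Figure D3:**
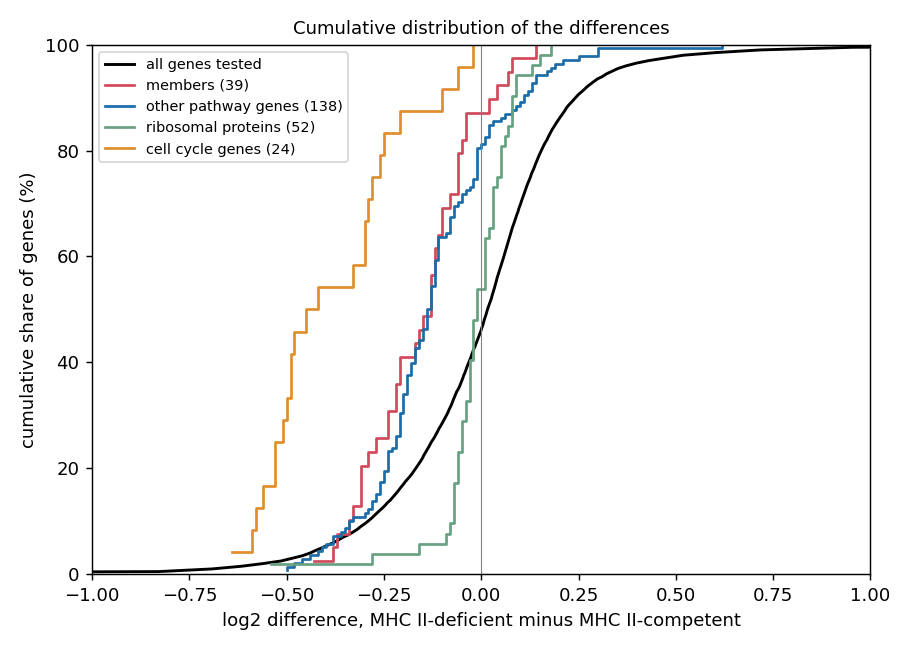
Cumulative share of genes (y axis, %) by log2 difference (x axis, MHC II-deficient minus MHC II-competent) for the 39 nucleolar genes, 138 other pathway genes, 52 ribosomal proteins, 24 cell cycle genes and all genes tested. The nucleolar and other pathway curves run together left of the curve of all genes (medians -0.13 and -0.14 against 0.02), and that of the ribosomal proteins is centred near 0.

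Myc stood at 9.80, 9.97 and 9.86 on the competent and 9.53, 9.60 and 9.76 on the deficient arrays, without overlap (-0.25, SE 0.10, adjusted p = 0.231). Of 12 regulators tested, among them Max, the Mxd proteins that oppose Myc, Mtor and Maf1, 0 passed, with 3 at an unadjusted p under 0.05, and 5 lay below 0 (median 0.02). The groups did not overlap for 5 of the 12, 3 lower and 2 higher, against 24.4% of all genes tested. Chosen after their values were seen, Mxd4 stood at 8.18, 8.21 and 8.26 against 7.85, 8.04 and 7.69 (-0.36, SE 0.11, adjusted p = 0.119). Mxd3 stood at -0.25 (SE 0.11, adjusted p = 0.232), and both were lower without overlap. The 2 higher ones were Mnt at 0.17 (SE 0.09, adjusted p = 0.367) and Mtor at 0.04 (SE 0.09, adjusted p = 0.851). With overlap, Mxd1 stood at 0.19 and Mxi1 at -0.09.

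Cell cycle genes, as a list read from the same arrays, lay lower too. All 24 tested were below 0 (22 under quantile normalization), and the median was -0.43. Of them 7 fell (29.2%, against 2.05% of all genes tested that were called lower). The count was 2 without competent 1, 0 without competent 2 or deficient 1, 1 without deficient 2, 3 without deficient 3 and 9 without competent 3. It was 3 under quantile normalization and 0 with the myeloid score in the fit, where the median was -0.43 with 12 at an unadjusted p under 0.05, and 74 of all genes tested passed. The mean of the list was 9.25, 9.16 and 8.95 on the competent and 8.70, 8.74 and 8.78 on the deficient arrays. Competent 3 was the lowest competent array here as well, but it stayed above the deficient arrays, which it did not for the nucleolar genes. The difference between the cell cycle and nucleolar lists was not tested. Competent 3 had the lowest myeloid mean too (6.05). Once the myeloid score was in the fit, the median of the nucleolar genes was -0.22, and 32 of 39 lay below 0. Of the 39, 0 passed and 3 were at an unadjusted p under 0.05, against 2257 of 14953 genes tested. The score largely goes with the group, so this fit cannot separate them. The part of dividing cells in the nucleolar differences was not tested.

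**Figure D4:**
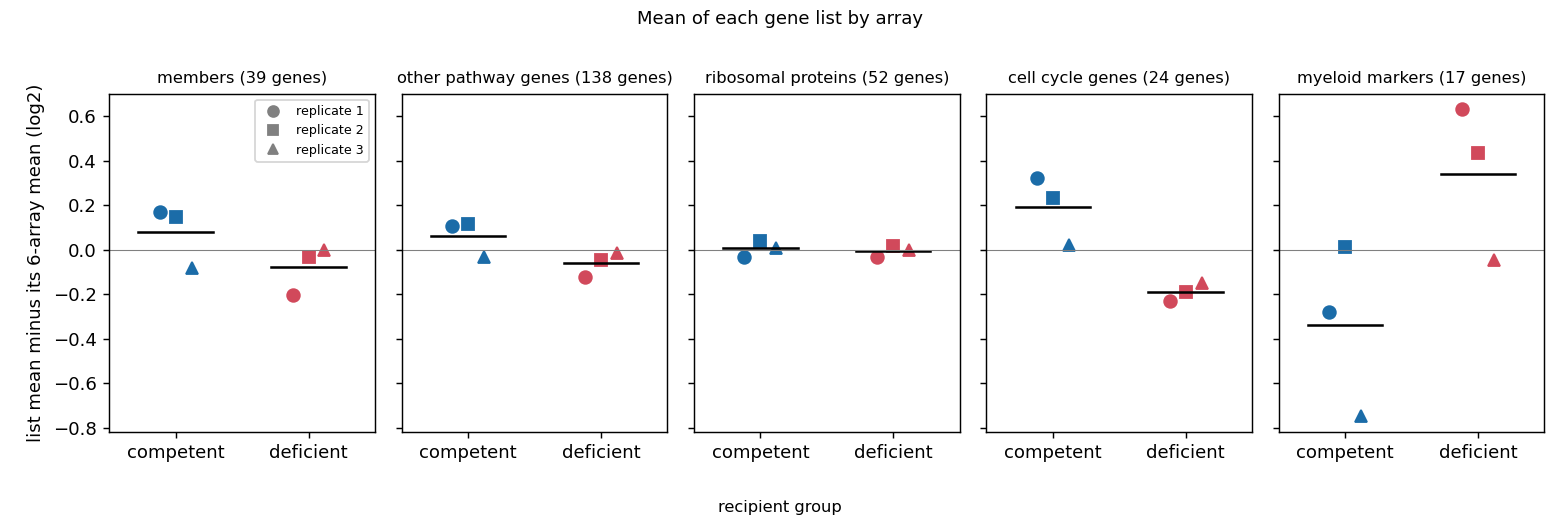
Mean log2 value of each gene list on each array, minus the list's mean over 6 arrays (y axis), by recipient group (x axis); symbols mark the replicate number and black lines the group means. Competent 3 lies below 2 of the 3 deficient arrays for the 39 nucleolar genes, the ribosomal proteins lie within 11.66 to 11.73 before centring, and the cell cycle genes and myeloid markers shift in opposite directions.

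**Figure D5:**
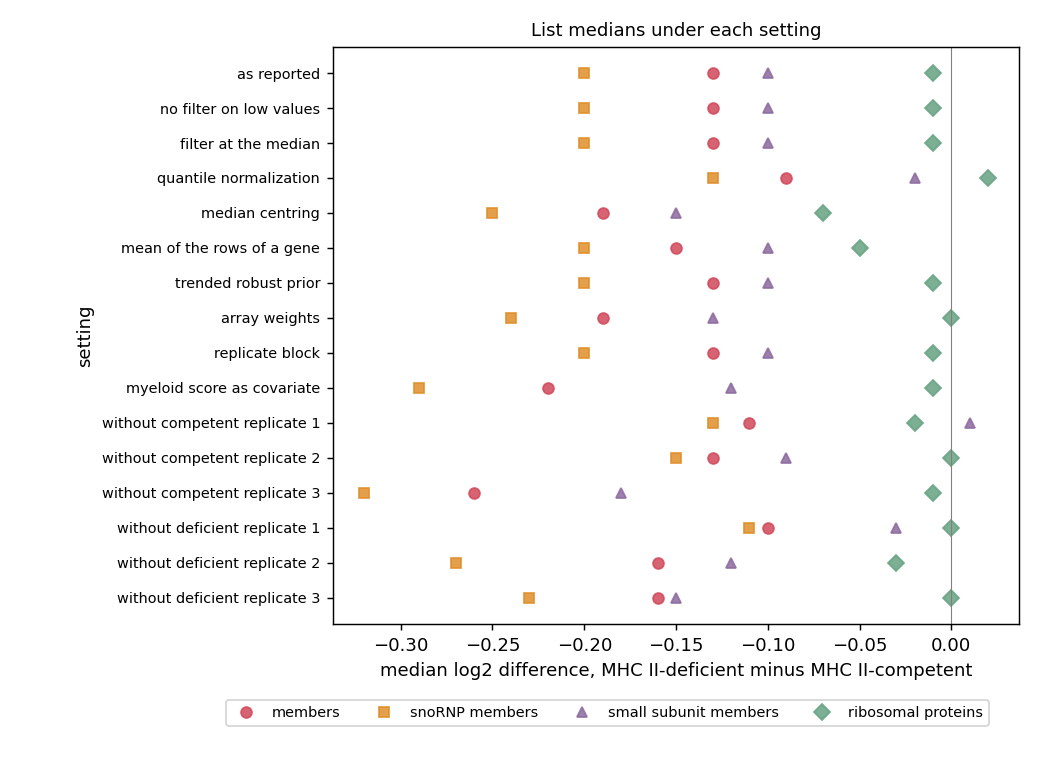
Median log2 difference (x axis) of the 39 nucleolar genes, the snoRNP and small subunit genes among them, and the ribosomal proteins, as reported and under the 15 alternative settings (y axis). The median of the 39 genes stays between -0.26 and -0.09, lowest without competent 3 and nearest to 0 under quantile normalization. The filter, prior and replicate block settings cannot move it.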

How the data were processed

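The authors deposited 1 log2 expression value per array for 28101 rows, made with affy and RMA (robust multi-array averaging), per the submitters' processing notes. RMA corrects background, normalizes probes between arrays and summarises them; medians of the deposited rows still ran from 6.11 to 6.25. The log base is not stated and was taken as 2 from the range (2.40 to 13.33). Versions and genome build are not given in these sources. Rows with 1 platform symbol (21640) were named, with symbols updated by Entrez identifier for 21553 of them from a GRCm38.p6 gene table. A gene with several rows was read from the row with the highest mean. Genes with a mean under 5.226, the 25th percentile, were left out (4984). Differences are MHC II-deficient minus MHC II-competent, tested in R 4.3.3 by limma 3.58.1 (lmFit, eBayes, default prior, two-sided, no covariate, 9.40 degrees of freedom with the prior). Adjusted p-values are Benjamini-Hochberg over all 14953 genes, and under 0.05 is past the threshold. The fit was tested on simulated data. Errors are limma's standard errors, and intervals are unadjusted. The number of arrays, 3 per group, limits the precision.

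The members and lists were chosen with earlier results of these data known. Named genes were those past the threshold, the 4 of smallest p in each role, Ncl, Npm1, Fbl, Polr1a, Polr1b, Odc1, Cad and Myc, and called genes of the other lists. The 15 alternatives cover filter, normalization, rows per gene, prior, array weights, replicate block, a myeloid covariate and each array left out. Protein features were planned but not analysed here.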

Additional observations from a re-analysis of the deposited data

How the results depend on the processing

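With 3 arrays per group, signal spread limits what can be called. Of 690 values recomputed under 15 alternatives, 635 were counted as the same. For a gene this meant the same direction and side of the threshold. For a median it meant a shift smaller than the replicate spread, even where the sign turned. For a count of genes past the threshold it meant a change of at most 1.5-fold. The filter, prior and replicate block settings leave a gene's difference unchanged, so its direction there was fixed in advance. With 1 array left out, all genes past the threshold numbered 159 to 735 (507 with all arrays), the nucleolar genes past it 0 to 1, and the medians ran from -0.26 to -0.10 for the nucleolar genes, from -0.23 to -0.11 for other small subunit factors and from -0.20 to -0.12 for other snoRNP genes. The trended robust prior gave 1 nucleolar gene. The myeloid covariate, which also costs a degree of freedom, left 74 genes past the threshold and moved the medians of Odc1 and Cad to -0.38 and of other snoRNP genes to -0.11. Its score ran from 6.05 to 6.81 on the competent and from 6.75 to 7.43 on the deficient arrays. Score and group thus largely go together, and this fit cannot separate myeloid content from group. The ribosomal protein median was 0.02 under quantile normalization, -0.07 with median centring and -0.05 with rows averaged. Signs turned for Ncl under quantile normalization (0.01), Npm1 without competent 2 (0.01), Polr1b without competent 2 (0.08) or deficient 1 (0.02) and Polr1e without competent 1 (0.02), and the cause was not tested. With 1 array left out, Npm1 ran from -0.21 to 0.01, Polr1b from -0.24 to 0.08 and Polr1e from -0.38 to 0.02. Over all genes tested, the deviations of same-numbered arrays from their group means correlated at -0.02, -0.14 and 0.07. Such values cannot show whether the numbers pair the arrays, and the sample titles do not say. A replicate block gave 560 genes past the threshold, 0 of them nucleolar and 9 of them myeloid markers (1 without it).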
